A study of Mus musculus with 15 samples.

Results

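The kinesin superfamily, the motor proteins that move along microtubules, was followed through ligated and non-ligated mouse carotid arteries of 2 genotypes. Members were all genes whose symbol in the array's probe-to-gene table is Kif, a number and an optional letter, read from probe sets that carry that 1 symbol, and there were 37 of them among 22180 measured genes. They were grouped by their known roles into 12 mitotic, 15 transport and 6 cilium and hedgehog kinesins, with 4 others. Mitotic kinesins rose after ligation in both genotypes, with 11 of 12 past the test in each, by up to 3.12-fold in Has3-deficient and 3.24-fold in wildtype arteries. Among the transport kinesins Kif21b rose, and Kif1a, Kif13a and Kif3c fell, in both genotypes. Not 1 member passed the test between the genotypes.

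Kinesins use the energy of ATP to walk along microtubules or to take microtubules apart. Mitotic kinesins are made mainly while a cell divides. They push the spindle poles apart, line up the chromosomes and build the midzone where the daughter cells separate. Transport kinesins carry vesicles, mitochondria and receptors, and several of them work chiefly in the long axons of neurons. Smooth muscle cells of a healthy artery seldom divide, whereas dividing cells are a known feature of the wall after ligation.

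The arrays came from female C57Bl/6J mice aged 21 to 22 weeks, labelled either Has3 deficient or wildtype. Has3 encodes hyaluronan synthase 3, an enzyme that makes the matrix polymer hyaluronan. The left common carotid artery was tied off, and ligated as well as unligated arteries were taken 5 days later. The 4 groups were Has3-deficient ligated (n = 3), Has3-deficient non-ligated (n = 4), wildtype ligated (n = 4) and wildtype non-ligated (n = 4). The labels describe neither the allele nor whether each array is a separate animal, so p-values measure only the spread between these samples. They do not say whether the arteries were pooled, or which unligated vessel served as control.

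The deposited values were taken as log2 values, with the median of the 15 arrays already subtracted from every probe set. A value of 0.00 therefore lies at the probe set's median, and more than 1 array can hold it. The level of one gene cannot be set against that of another, and whether a gene is expressed at all cannot be read. Differences below are log2 changes with their standard error (SE), and passing means an adjusted p under 0.05 in limma, with the Benjamini-Hochberg adjustment made over all measured genes. Has3 itself was not called lower under the Has3 deficient label, with -0.20 ± 0.16 in ligated and 0.09 ± 0.14 in non-ligated arteries (Has3-deficient over wildtype, log2 ± SE). The position of its probe set relative to any change in the gene is not known here, so it does not check the labels. Some non-ligated arrays stood apart. A list of 11 genes of neurons and chromaffin cells, with Th and Snap25 among them, averaged 4.19 log2 units above the medians in Has3-deficient non-ligated replicate 3, and all 11 were highest in that array. The same list stood at 1.07 in replicate 1 and 1.70 in replicate 4 of that group, and at 2.36 in wildtype non-ligated replicate 2. These 4 arrays lay over 1 log2 unit above the median array. In bulk tissue, fewer cells of a type and less RNA per cell cannot be told apart.

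**Figure D1:**
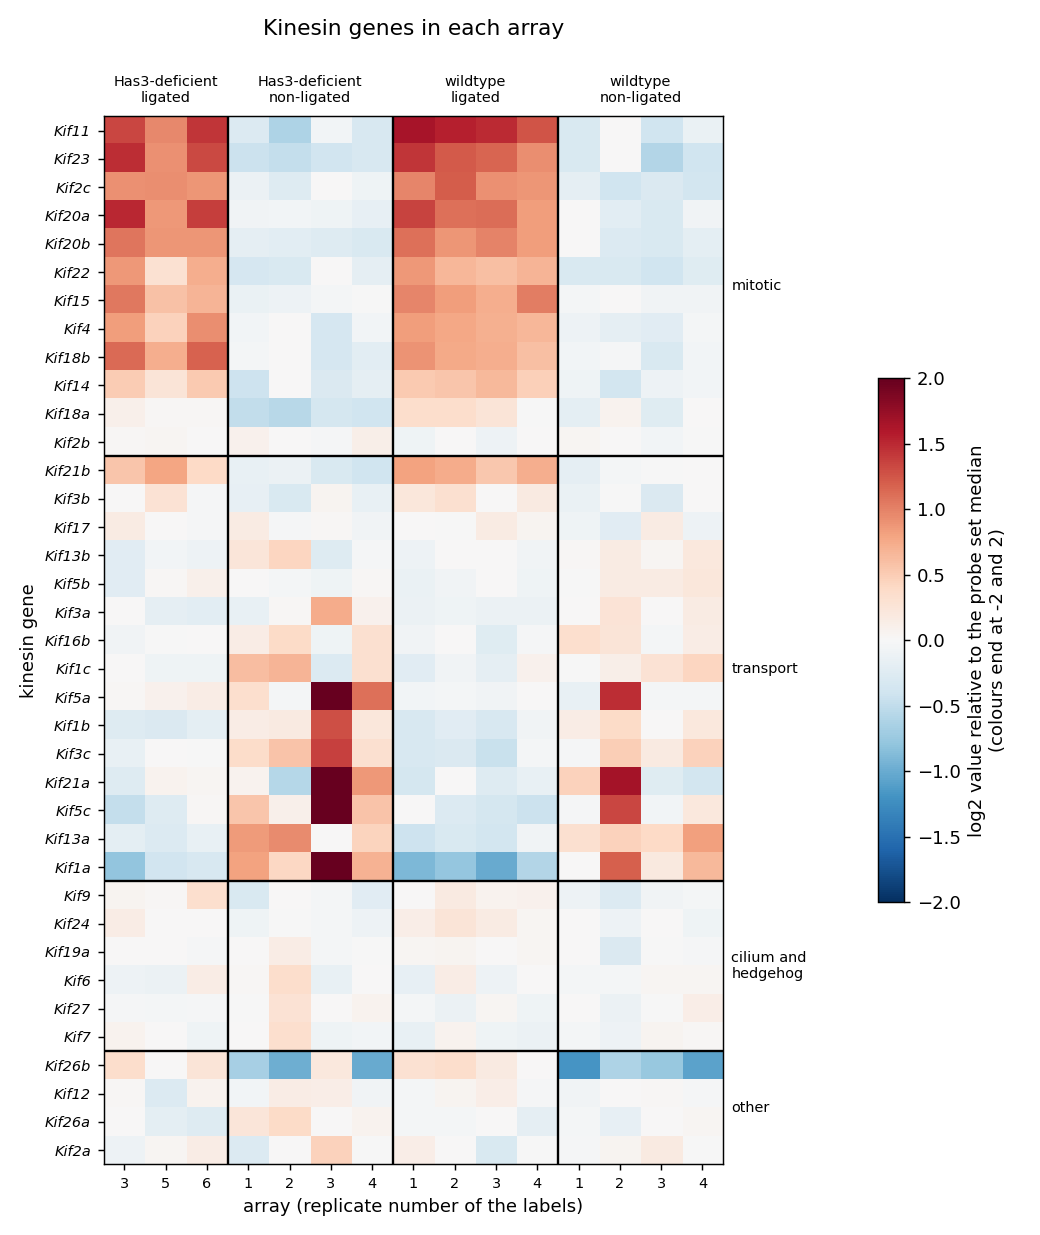
Each row is 1 of the 37 kinesin genes, each column 1 of the 15 arrays, and the colour is the log2 value relative to the probe set's median (colours end at -2 and 2). The mitotic block is red in all 7 ligated arrays, apart from Kif2b and the pale Kif18a, and the dark red cells of the transport block lie in Has3-deficient non-ligated array 3 and, less so, wildtype non-ligated array 2.

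Ligation moved kinesins in both directions. In Has3-deficient arteries 13 of the 37 members (35.1%) rose and 5 (13.5%) fell, against 10.2% and 8.08% of all 22180 genes. In wildtype arteries 15 members (40.5%) rose and 4 (10.8%) fell, against 13.2% and 14.6% of all genes. The higher calls were mostly mitotic, with 11 of the 13 in Has3-deficient and 11 of the 15 in wildtype arteries. The share of members that fell in wildtype arteries was thus no higher than that of all genes.

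The separation of the arrays was counted as well. In Has3-deficient arteries the ligated arrays lay wholly above the non-ligated ones for 14 members and wholly below for 6, where 13.0% and 13.4% of all genes did so. In wildtype arteries the counts were 15 and 6, where 14.0% and 16.0% of all genes did so. The median change over the 37 members was -0.02 log2 units in Has3-deficient and 0.05 in wildtype arteries, beside medians over all genes of -0.03 and 0.005.

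Kif11 (Eg5), the tetrameric motor that pushes spindle poles apart, had one of the largest changes of the family. Its log2 values were 1.33, 0.96 and 1.44 in Has3-deficient ligated arteries, against -0.27, -0.63, -0.06 and -0.31 in non-ligated ones. In wildtype arteries they were 1.64, 1.56, 1.49 and 1.25 after ligation, against -0.30, 0.00, -0.40 and -0.14 without it. Every ligated array exceeded every non-ligated array, by a wide margin. The change was 1.56 ± 0.15 (2.95-fold, limma adjusted p = 3.07e-06) in Has3-deficient and 1.70 ± 0.14 (3.24-fold, limma adjusted p = 5e-07) in wildtype arteries.

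The kinesins of the midzone and of cell separation rose with it. Kif23 (MKLP1) forms the centralspindlin complex with Racgap1, which gathers at the site of cleavage. It stood at 1.48, 0.92 and 1.32 in Has3-deficient ligated arteries, against -0.42, -0.48, -0.39 and -0.32 in non-ligated ones. Wildtype arteries had 1.43, 1.23, 1.16 and 0.92 after ligation, against -0.30, 0.00, -0.59 and -0.40 without it. The groups did not overlap in either genotype, and Kif23 had the highest change of any member in Has3-deficient arteries, 1.64 ± 0.15 (3.12-fold), beside 1.50 ± 0.14 (2.84-fold) in wildtype ones.

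Kif20a (also listed as Rab6kifl), which brings regulators to the midzone, had 1.50, 0.86 and 1.38 in Has3-deficient ligated arteries, against -0.08, -0.05, -0.08 and -0.17 in non-ligated ones. Its wildtype values were 1.36, 1.11, 1.11 and 0.84 after ligation, against 0.00, -0.22, -0.30 and -0.07 without it. Kif20a rose by 1.34 ± 0.14 in Has3-deficient and 1.25 ± 0.13 in wildtype arteries, again with no overlap. Its relative Kif20b, needed for the last steps of cytokinesis, had 1.08, 0.89 and 0.88 in Has3-deficient ligated arteries, against -0.18, -0.21, -0.26 and -0.30 in non-ligated ones. Kif20b reached 1.10, 0.89, 0.99 and 0.84 in wildtype ligated arteries, against 0.00, -0.27, -0.30 and -0.20 in non-ligated ones. Its replicates lay close together, and the change was 1.18 ± 0.08 and 1.15 ± 0.08. Kif14, which recruits citron kinase to the midbody, changed less, by 0.65 ± 0.10 in Has3-deficient and 0.70 ± 0.10 in wildtype arteries.

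Kinesins of the mitotic list that shorten microtubules or hold chromosomes rose as well, Kif2b excepted. Kif2c (MCAK), a depolymerase at the centromere, had 0.91, 0.93 and 0.88 in Has3-deficient ligated arteries, against -0.12, -0.26, 0.00 and -0.08 in non-ligated ones. In wildtype arteries Kif2c had 0.98, 1.21, 0.91 and 0.89 after ligation, against -0.19, -0.39, -0.29 and -0.37 without it. It rose by 1.02 ± 0.08 and 1.31 ± 0.08, with non-overlapping arrays in both genotypes.

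Kif18b, which trims astral microtubules, also rose in both genotypes. It had 1.13, 0.73 and 1.18 in Has3-deficient ligated arteries, against -0.04, 0.00, -0.34 and -0.21 in non-ligated ones, a rise of 1.16 ± 0.12. In wildtype arteries it had 0.90, 0.76, 0.73 and 0.61 after ligation, against -0.06, -0.03, -0.31 and -0.06 without it, a rise of 0.87 ± 0.11. The test of the difference between these rises did not pass (0.29 ± 0.16, 95% confidence interval -0.05 to 0.64, limma adjusted p = 0.662).

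Kif18a, which dampens chromosome movement at the metaphase plate, had the smallest change of the 11 that passed. Its values were 0.11, 0.03 and 0.03 in Has3-deficient ligated arteries, against -0.49, -0.56, -0.35 and -0.39 in non-ligated ones, and the groups did not overlap. In wildtype arteries they were 0.35, 0.35, 0.26 and -0.003 after ligation, against -0.19, 0.06, -0.25 and 0.00 without it, so replicate 4 of the ligated group fell inside the non-ligated range. The change was 0.50 ± 0.10 (limma adjusted p = 0.00182) in Has3-deficient and 0.33 ± 0.09 (limma adjusted p = 0.0112) in wildtype arteries.

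The chromokinesins, which bind chromosome arms, also rose. Kif22 (Kid) had 0.87, 0.31 and 0.73 in Has3-deficient ligated arteries, against -0.34, -0.30, 0.00 and -0.17 in non-ligated ones. Its wildtype values were 0.86, 0.66, 0.61 and 0.68 after ligation, against -0.30, -0.31, -0.39 and -0.24 without it. Kif22 rose by 0.84 ± 0.12 and 1.01 ± 0.11. Kif4, which also sets the length of the midzone, rose by 0.85 ± 0.11 and 0.88 ± 0.10. Kif15, a spindle motor that can stand in for Kif11, had 1.05, 0.59 and 0.67 in Has3-deficient ligated arteries, against values between -0.14 and -0.01 in non-ligated ones. Kif15 stood at 0.97, 0.83, 0.73 and 1.02 in wildtype ligated arteries, against values between -0.07 and 0.00 in non-ligated ones. It rose by 0.85 ± 0.10 and 0.93 ± 0.09.

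Kif2b, the third member of the depolymerase subfamily, did not pass. Its 15 values lay between -0.10 and 0.12, and its change was -0.03 ± 0.05 in Has3-deficient and -0.05 ± 0.05 in wildtype arteries. Kif2a, the sister gene that works in interphase and in neurons as well as on spindles, did not pass either, with -0.01 ± 0.14 and -0.10 ± 0.13.

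As a group, the 12 mitotic kinesins had a median change of 0.94 in Has3-deficient and 0.97 in wildtype arteries. The ligated arrays lay wholly above the non-ligated ones for 11 members in Has3-deficient and 10 in wildtype arteries, Kif18a being the overlap. Their mean per array was 0.90, 0.58 and 0.83 in Has3-deficient ligated arteries, against -0.20, -0.22, -0.18 and -0.17 in non-ligated ones. It was 0.90, 0.83, 0.77 and 0.68 in wildtype ligated arteries, against -0.13, -0.14, -0.27 and -0.14 in non-ligated ones. Within the ligated groups many members shared their lowest array. Of the 11 that rose, 8 were lowest in replicate 5 among the Has3-deficient ligated arrays, and 9 were lowest in replicate 4 among the wildtype ones. Among the wildtype non-ligated arrays, 8 of the 11 were lowest in replicate 3. The Has3-deficient non-ligated arrays showed no such common order, with 3, 4, 2 and 2 members lowest in replicates 1 to 4.

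The other genes of cell division followed the same arrays. A list of 9 measured proliferation genes, such as Mki67 and Cdk1, had 9 risen in each genotype, and its mean per array ranged from 0.95 to 1.20 in Has3-deficient ligated arteries, against -0.43 to -0.22 in non-ligated ones. In wildtype arteries it ranged from 1.02 to 1.39, against -0.47 to -0.14. Of 16 proteins that work with mitotic kinesins, 12 rose and 1 fell in Has3-deficient arteries, and 13 rose and none fell in wildtype ones. Prc1, the microtubule bundler that Kif4 carries to the midzone, rose by 1.77 ± 0.15 and 1.85 ± 0.14. Ect2, which centralspindlin brings to the cleavage site, rose by 1.82 ± 0.15 and 1.68 ± 0.14, and the kinase Plk1 by 1.78 ± 0.18 and 1.74 ± 0.17. Cenpe, a kinesin of the kinetochore whose symbol lies outside the Kif series, rose by 1.64 ± 0.12 and 1.75 ± 0.11. Numa1, a spindle pole protein, was the gene that fell in Has3-deficient arteries, by 0.41 on the log2 scale (SE 0.11).

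Markers of other cells moved with these rises. All 10 macrophage genes on the marker list rose in both genotypes, with list means per array from 1.98 to 2.16 in Has3-deficient ligated arteries, against -1.25 to -0.17 in non-ligated ones. The wildtype means ranged from 2.02 to 2.32, against -0.71 to -0.21. The contractile smooth muscle list fell, by 10 of 10 genes in Has3-deficient and 9 of 10 in wildtype arteries, with list means from -0.58 to -0.38 in Has3-deficient ligated arteries, against -0.03 to 0.50 in non-ligated ones. The wildtype means of that list ranged from -0.93 to -0.41, against 0.23 to 0.49. The part of these cell types in the rise of the mitotic kinesins was not tested.

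**Figure D2:**
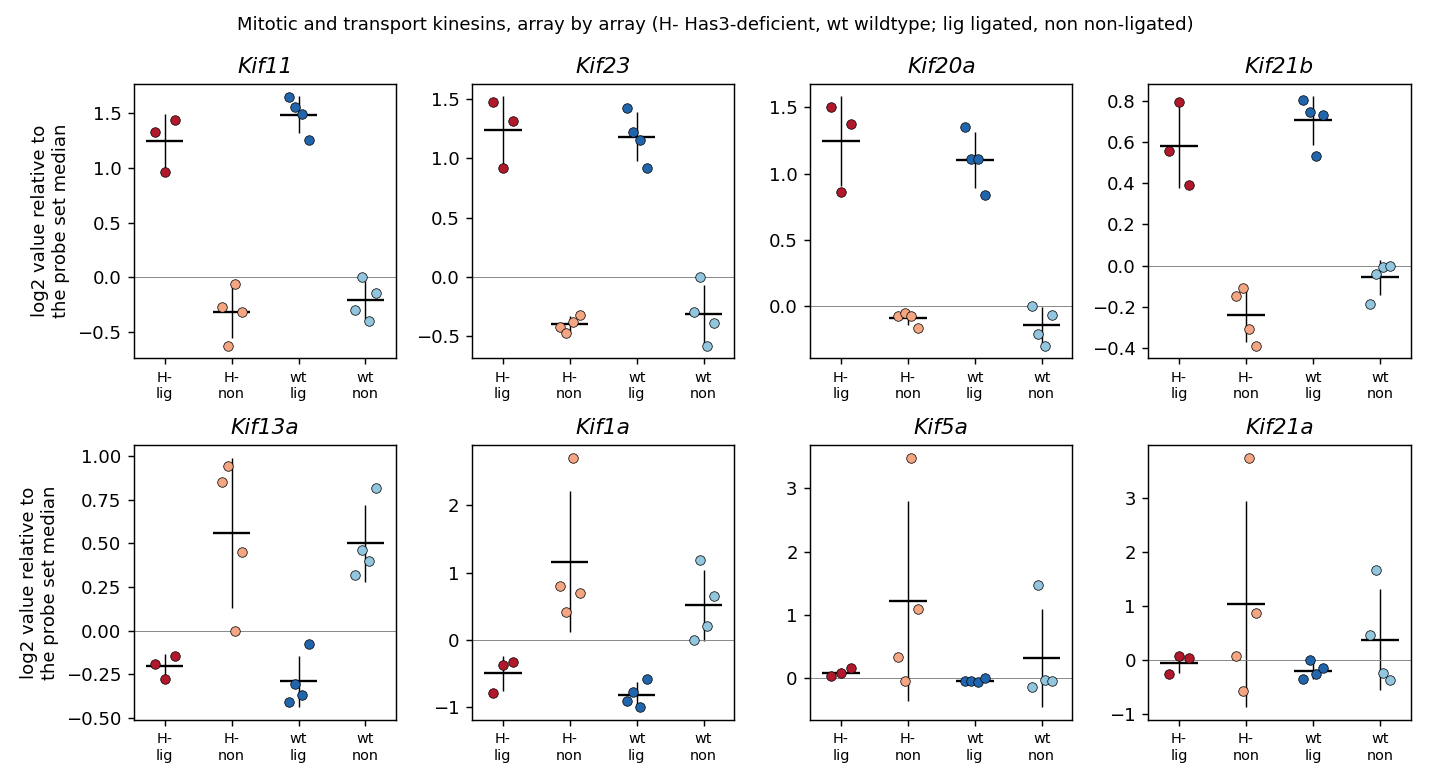
Log2 values relative to the probe set's median for 8 kinesins, with 1 point per array, the group mean as a bar and the SD as a line (H- Has3-deficient, wt wildtype, lig ligated, non non-ligated; the vertical scales differ). Kif11, Kif23, Kif20a and Kif21b are higher in every ligated array than in any non-ligated one, whereas Kif5a and Kif21a reach 3.49 and 3.74 in 1 Has3-deficient non-ligated array.

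Promoters of the members were read from RefSeq (assembly GRCm38.p6, 250 bases before to 50 after the annotated start), where 31 of the 37 members had an entry. The letters searched were CCAAT, the core of the site bound by the factor NF-Y, and TTTGAA or TTCGAA, the letters of the cell cycle genes homology region (CHR), a known element of genes expressed in mitosis. Both strands were read, and TTCGAA is its own reverse complement, so it was counted once. A gene with several promoters was counted if any 1 of them matched. The CHR letters lay in 9 of the 11 mitotic genes (81.8%) and 1 of 11 transport genes (9.09%, Kif1a), beside 21.7% of 27025 genes with an entry. Kif1a had them in 1 of its 2 promoters, at chr1:93082431-93082730 (minus strand), inside the annotated bounds of the gene (93015455 to 93102039). CCAAT lay in 7 of 11 mitotic (63.6%) and 3 of 11 transport genes (27.3%), beside 41.1% of all genes. Both stood together in 6 mitotic promoters (54.5%), in 0 transport promoters and in 8.61% of all genes. Of the 5 cilium and hedgehog kinesins with an entry, CCAAT lay in 3 (60%) and the CHR letters in 2 (40%), Kif24 and Kif27, which held both. Of the 4 other kinesins, Kif26b alone held both (25%). Per promoter of 32851 in the table, the shares were 19.2% for the CHR letters, 37.4% for CCAAT and 7.52% for both. A match of letters is not a bound site, and no match says only that the letters are not in this window.

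Of the mitotic members with an entry (Kif20a had none), the promoters without CHR letters were those of Kif18a and Kif2b. Kif18a had the smallest rise and Kif2b no passing change. Outside the mitotic list the letters lay in Kif1a, which fell, and Kif27, which did not pass. They also lay in Kif26b, which rose in both genotypes, and Kif24, which rose in wildtype arteries. A link between the letters and the changes was not tested. The windows shown are those of Kif11, Kif15 and Kif22, where the letters stand close before the start, beside Kif18a, Kif2b and the transport kinesin Kif13a, where they do not. Each is the 120 bases before the annotated start, 5′ to 3′ on the gene's strand, with CCAAT and CHR letters of either strand in capitals.
Kif11: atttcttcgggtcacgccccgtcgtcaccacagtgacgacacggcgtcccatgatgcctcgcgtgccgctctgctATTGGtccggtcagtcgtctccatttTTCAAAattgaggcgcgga
Kif15: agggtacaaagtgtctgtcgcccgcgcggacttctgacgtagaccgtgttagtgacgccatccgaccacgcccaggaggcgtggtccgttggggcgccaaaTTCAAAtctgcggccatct
Kif22: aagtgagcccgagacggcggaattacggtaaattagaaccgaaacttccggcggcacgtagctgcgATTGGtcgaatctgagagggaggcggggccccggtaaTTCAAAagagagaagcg
Kif18a: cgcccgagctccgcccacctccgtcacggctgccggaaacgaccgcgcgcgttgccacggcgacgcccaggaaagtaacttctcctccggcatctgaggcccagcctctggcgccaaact
Kif2b: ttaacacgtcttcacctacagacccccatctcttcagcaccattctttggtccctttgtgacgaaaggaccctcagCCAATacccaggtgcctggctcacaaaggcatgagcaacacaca
Kif13a: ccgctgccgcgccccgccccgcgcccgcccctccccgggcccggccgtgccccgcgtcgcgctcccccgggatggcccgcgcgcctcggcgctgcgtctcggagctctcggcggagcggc
They lie at chr19:37376262-37376381 (plus strand) for Kif11, chr9:122950961-122951080 (plus) for Kif15 and chr7:127042421-127042540 (minus) for Kif22. Those of Kif18a, Kif2b and Kif13a lie at chr2:109280618-109280737 (plus), chr11:91577556-91577675 (minus) and chr13:46929719-46929838 (minus). The CHR letters begin 19 bases before the start in Kif11 and Kif15 and 17 bases before it in Kif22, in each on the opposite strand (read as TTCAAA). In Kif11 and Kif22, ATTGG, the reverse complement of CCAAT, stands upstream of them.

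In Kif23 and Kif18b the CHR letters lie just past the start, and 30 bases around it are shown, from 20 before for Kif23 (chr9:61946790-61946819, minus strand) and from 19 before for Kif18b (chr11:102925114-102925143, minus strand).
Kif23: caggcggccgctgATTGGcctgTTTGAAat
Kif18b: cgcggatgagcggaccggctagTTTGAAcg
In Kif23 they begin at base 2 after the start and in Kif18b at base 3, on the gene's own strand. The letters also lie after the start in Kif20b (7 and 13 bases) and Kif4 (19 bases). In Kif2c and Kif14 they lie farther upstream, 103 and 228 bases before it.

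Most transport kinesins had lower values after ligation, though few passed the test, and 3 of 15 changes were above 0 in each genotype. In Has3-deficient arteries 1 of 15 rose (6.67%) and 4 fell (26.7%), against 10.2% and 8.08% of all genes. The median change of the 15 was -0.40. In wildtype arteries 2 rose (13.3%) and 4 fell (26.7%), against 13.2% and 14.6% of all genes, and the median of the 15 was -0.30. The share that rose was thus near or below that of all genes. With only the groups compared in the fit, 0 transport kinesins passed as lower in Has3-deficient arteries, the lowest adjusted p of the 4 being 0.0606 (limma), for Kif13a.

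Kif21b, a motor of neurons and immune cells that limits microtubule growth, was the transport kinesin that rose in both genotypes. It had 0.56, 0.80 and 0.39 in Has3-deficient ligated arteries, against -0.15, -0.11, -0.31 and -0.39 in non-ligated ones. Its wildtype values were 0.81, 0.75, 0.54 and 0.73 after ligation, against -0.19, -0.04, -0.01 and 0.00 without it. The ligated arrays were higher throughout, and the change was 0.82 ± 0.10 (limma adjusted p = 4.27e-05) in Has3-deficient and 0.76 ± 0.09 (limma adjusted p = 2.39e-05) in wildtype arteries. The macrophage list above rose in the same arrays, and its part in the rise of Kif21b was not tested.

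Kif13a, which carries recycling endosomes and the mannose 6-phosphate receptor, had the steadiest fall. It had -0.19, -0.28 and -0.14 in Has3-deficient ligated arteries, against 0.85, 0.94, 0.00 and 0.45 in non-ligated ones. In wildtype arteries it had -0.41, -0.31, -0.37 and -0.08 after ligation, against 0.32, 0.46, 0.40 and 0.82 without it. The groups did not overlap in either genotype, and the change was -0.76 ± 0.19 (limma adjusted p = 0.0103) in Has3-deficient and -0.79 ± 0.17 (limma adjusted p = 0.00299) in wildtype arteries. Kif13a passed in every fit that left out 1 array, but not after quantile normalization in wildtype arteries (-0.99 ± 0.35, limma adjusted p = 0.055). Over all alternatives its adjusted p ranged from 0.000344 to 0.0606 in Has3-deficient and from 0.000235 to 0.055 in wildtype arteries. The contractile smooth muscle genes fell in the same arrays, and their part in this fall was not tested. Its paralog Kif13b did not pass, with -0.23 ± 0.13 and -0.15 ± 0.12.

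Kif1a, the fast motor of synaptic vesicle precursors, had the largest fall of the family. Its values were -0.79, -0.38 and -0.32 in Has3-deficient ligated arteries, against 0.81, 0.42, 2.71 and 0.70 in non-ligated ones. In wildtype arteries they were -0.90, -0.78, -1.003 and -0.58 after ligation, against 0.00, 1.20, 0.20 and 0.65 without it. Every ligated array was below every non-ligated one, while the non-ligated arrays spread widely among themselves. Kif1a fell by 1.66 (SE 0.43, limma adjusted p = 0.0154) in Has3-deficient and 1.33 (SE 0.40, limma adjusted p = 0.0227) in wildtype arteries. Its highest values lay in Has3-deficient non-ligated replicate 3 and wildtype non-ligated replicate 2, the arrays highest in neuron genes. Without the 4 arrays high in neuron genes the change was smaller, -0.92 ± 0.25 in Has3-deficient and -1.10 ± 0.17 in wildtype arteries. Without wildtype non-ligated replicate 2 alone, the wildtype change was also -1.10 but its SE 0.42, and it did not pass (limma adjusted p = 0.0771). The wildtype call of Kif1a ended in 4 of the 15 fits that left out 1 array. Its Has3-deficient call ended without ligated replicate 3. Over all alternatives the adjusted p of Kif1a ranged from 0.00402 to 0.0846 in Has3-deficient and from 0.000306 to 0.0771 in wildtype arteries. The fit without the 4 arrays leaves 1 Has3-deficient non-ligated array, whose spread is assumed to equal that of the other groups.

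Kif1b, which carries mitochondria and vesicle precursors, had -0.25, -0.29 and -0.19 in Has3-deficient ligated arteries, against 0.15, 0.18, 1.29 and 0.23 in non-ligated ones. It fell there by 0.71 (SE 0.21, limma adjusted p = 0.0331). In wildtype arteries it had -0.32, -0.22, -0.32 and -0.06 after ligation, against 0.15, 0.38, 0.00 and 0.21 without it, and -0.42 ± 0.20 did not pass. The arrays did not overlap in either genotype. The Has3-deficient call ended without ligated replicate 3, 5 or 6 and with only the groups compared. Without Has3-deficient non-ligated replicate 3 the change of Kif1b was -0.43 ± 0.09 in Has3-deficient and -0.42 ± 0.08 in wildtype arteries, and passed in both.

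Kif3c, a partner of Kif3a found chiefly in neurons, had -0.15, 0.00 and -0.003 in Has3-deficient ligated arteries, against 0.37, 0.57, 1.37 and 0.31 in non-ligated ones. Its wildtype values were -0.32, -0.30, -0.45 and -0.05 after ligation, against -0.02, 0.49, 0.18 and 0.47 without it. The groups were apart in both genotypes, by only a few hundredths in wildtype arteries. It fell by 0.71 (SE 0.21, limma adjusted p = 0.0302) and 0.56 (SE 0.19, limma adjusted p = 0.0466). The wildtype call of Kif3c ended in 10 of the 15 fits that left out 1 array, that of Kif3b below in 7 and that of Kif5b in 9. The Has3-deficient call of Kif3c ended without ligated replicate 3, 5 or 6.

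The other kinesin-2 subunits, which drive transport in cilia, behaved differently. Kif3b rose in wildtype arteries, by 0.29 ± 0.10 (limma adjusted p = 0.0425), with 0.22, 0.32, 0.00 and 0.17 after ligation, against -0.14, -0.02, -0.30 and 0.00 without it, so the groups met at 0.00. In Has3-deficient arteries Kif3b had 0.00, 0.29 and -0.03 after ligation, against -0.16, -0.31, 0.05 and -0.15 without it, and 0.23 ± 0.11 did not pass. Kif3a did not pass, with -0.30 ± 0.16 and -0.22 ± 0.15.

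Kif5b, the conventional kinesin heavy chain of most cells, had -0.23, 0.03 and 0.10 in Has3-deficient ligated arteries, against 0.01, -0.03, -0.08 and 0.03 in non-ligated ones. Its wildtype values were -0.13, -0.08, 0.001 and -0.09 after ligation, against -0.01, 0.16, 0.16 and 0.23 without it. It fell in wildtype arteries by 0.21 (SE 0.07, limma adjusted p = 0.0424), with 1 pair of values overlapping, and had -0.02 ± 0.08 in Has3-deficient arteries. Kif5b has 2 probe sets. Their changes were 0.10 and -0.13 in Has3-deficient arteries, and -0.14 and -0.28 in wildtype ones.

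The neuronal heavy chains Kif5a and Kif5c and the neuronal motor Kif21a had large differences that did not pass, and were chosen for description after their values were seen. Kif5a had 0.03, 0.08 and 0.16 in Has3-deficient ligated arteries, against 0.34, -0.04, 3.49 and 1.10 in non-ligated ones. In wildtype arteries it had values between -0.06 and 0.00 after ligation, against -0.14, 1.47, -0.04 and -0.04 without it. Its change was -1.13 ± 0.63 in Has3-deficient and -0.35 ± 0.59 in wildtype arteries. Without the 4 arrays high in neuron genes these values were 0.13 ± 0.08 and 0.04 ± 0.05, of opposite sign. Kif5c reached 2.85 in Has3-deficient non-ligated replicate 3 and 1.34 in wildtype non-ligated replicate 2, against 0.10 to 0.56 and -0.05 to 0.22 in the rest of those groups. Its change was -1.26 ± 0.51 and -0.63 ± 0.48, and without the 4 arrays high in neuron genes -0.33 ± 0.20 and -0.31 ± 0.13. Kif21a reached 3.74 and 1.66 in the same 2 arrays, and its change was -1.08 ± 0.76 and -0.57 ± 0.71. Without the 4 arrays the Kif21a values were 0.52 ± 0.27 in Has3-deficient and -0.14 ± 0.18 in wildtype arteries, the first of opposite sign, and none of these passed.

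The highest value of 8 of the 15 transport kinesins among all 8 non-ligated arrays lay in Has3-deficient non-ligated replicate 3, and the lowest value of 5 others lay there too. The mean of the transport kinesins was 1.02 in that array, against 0.18 to 0.29 in the rest of its group and 0.05 to 0.51 in wildtype non-ligated arteries. For 14 of the 37 members the range over the non-ligated arrays was over 2 times as wide as over the ligated ones, and 11 of these were transport kinesins and none was mitotic. The ranges cover 8 non-ligated and 7 ligated arrays, and the share of all genes with such ranges was not counted. Leaving out Has3-deficient non-ligated replicate 3 lowered the count to 8 members, of which 6 were transport kinesins. Without that array, 7 of 15 transport kinesins fell in Has3-deficient and 8 in wildtype arteries, in place of 4 and 4. The share of all genes that fell in that fit was not counted, so these counts cannot be set against it. The wildtype changes were the same in that fit and only their SE differed, as for Kif1b (-0.42 ± 0.08, beside -0.42 ± 0.20 with all arrays). Kif1c, a vesicle motor of podosomes in smooth muscle cells, and Kif16b, a motor of early endosomes, then passed in both genotypes. Kif1c had -0.60 ± 0.12 and -0.30 ± 0.10 there, beside -0.40 ± 0.18 and -0.30 ± 0.17 with all arrays. Kif16b had -0.30 ± 0.10 and -0.26 ± 0.09, beside -0.21 ± 0.11 and -0.26 ± 0.10. The rising mitotic kinesins numbered 11 in both genotypes without it. Kif17, a motor of dendrites and cilia, had 0.02 ± 0.09 and 0.11 ± 0.08 with all arrays and did not pass.

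**Figure D3:**
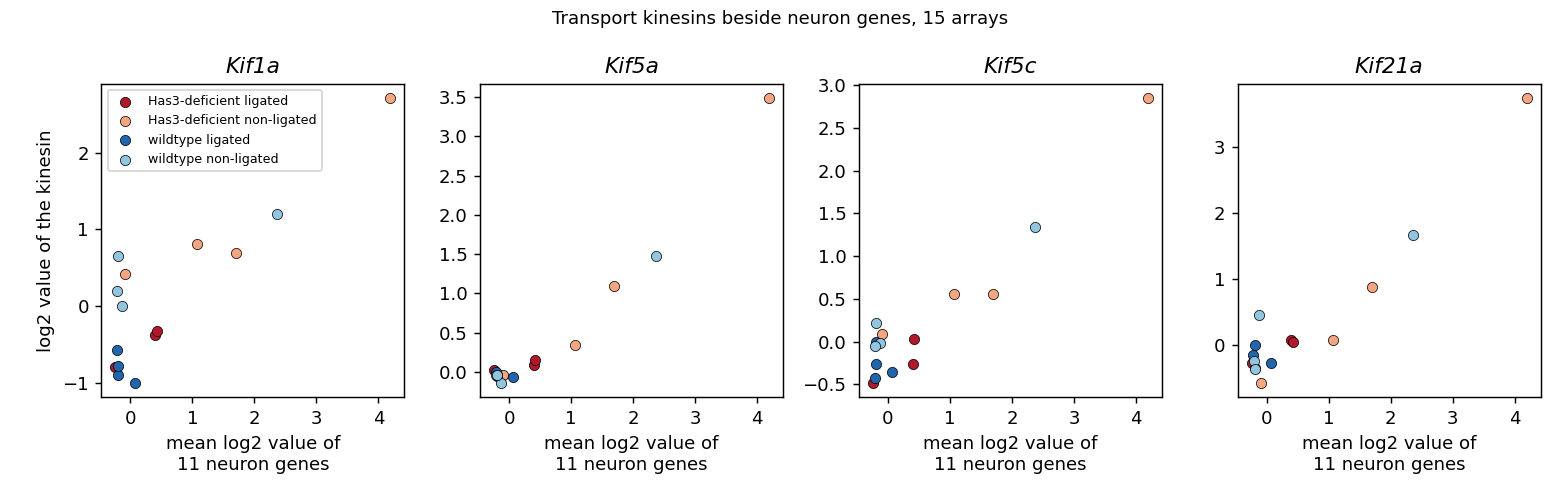
Log2 values of Kif1a, Kif5a, Kif5c and Kif21a (vertical) against the mean log2 value of 11 neuron genes (horizontal), with 1 point for each of the 15 arrays, coloured by group. Has3-deficient non-ligated array 3 lies at the upper right of every panel, with a neuron mean of 4.19. Wildtype non-ligated array 2 follows at 2.36. In the Kif1a panel every ligated array lies below every non-ligated one. The ligated arrays with neuron means of 0.07, 0.40 and 0.42 have no non-ligated array of the same mean, the nearest being at -0.09 and 1.07.

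In limma 0 of the 11 neuron genes passed in either ligation comparison (5 had an unadjusted p under 0.05 in Has3-deficient and 1 in wildtype arteries), with median changes of -1.46 in Has3-deficient and -0.44 in wildtype arteries. Of 6 measured Schwann cell genes, 1 rose and 2 fell in each genotype. The part of neuronal tissue in the changes of the transport kinesins was not tested beyond the fits without those arrays.

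The cargo partners of transport kinesins fell more often than they rose. Of 16 measured, 11 fell and none rose in Has3-deficient arteries, and 7 fell and 1 rose in wildtype ones. The list averaged 0.54 in Has3-deficient non-ligated replicate 3, against 0.11 to 0.24 in the rest of that group. Without that array 9 fell in each genotype. Without the 4 arrays high in neuron genes the median change of the list was -0.40 in Has3-deficient and -0.22 in wildtype arteries. The first of these rests on 1 Has3-deficient non-ligated array. With all arrays the medians were -0.35 and -0.26. Fez1, an adaptor of conventional kinesin, fell by 0.83 (SE 0.13) and 0.95 (SE 0.12). Trak2 and Rhot1, which couple kinesin to mitochondria, fell by 0.37 (SE 0.08) and 0.32 (SE 0.08) in Has3-deficient arteries, and by 0.47 (SE 0.08) and 0.46 (SE 0.07) in wildtype ones. Kifap3, the third subunit of kinesin-2, fell by 0.59 (SE 0.16) and 0.46 (SE 0.15). In Has3-deficient arteries the light chain Klc1 fell by 0.63 (SE 0.19) and the adaptor Mapk8ip1 by 0.73 (SE 0.16). Madd, which links Kif1a and Kif1b to vesicles, rose in wildtype arteries, by 0.87 ± 0.23.

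Cytoplasmic dynein, the motor that walks the other way, had 4 of 10 genes lower in Has3-deficient arteries, with Dctn1 (-0.54 ± 0.12) and Dynll1 (-0.36 ± 0.10) farthest, and 0 of 10 in wildtype ones (limma, with 0 at an unadjusted p under 0.05). The list averaged 0.51 in Has3-deficient non-ligated replicate 3, against 0.05 to 0.13 in the rest of that group. Without that array 2 of the 10 fell in Has3-deficient arteries, Dctn1 and Dynll1. The differences between the genotypes did not pass for any of the 10 genes (limma, lowest adjusted p = 0.559, with 2 at an unadjusted p under 0.05). Among 12 measured tubulins, the building blocks of the track, Tubb6 rose by 0.91 ± 0.21 and 0.95 ± 0.19 and Tuba1c by 0.39 ± 0.12 and 0.51 ± 0.11. Tubb4a, a tubulin of the nervous system, fell in wildtype arteries, by 1.24 (SE 0.37).

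**Figure D4:**
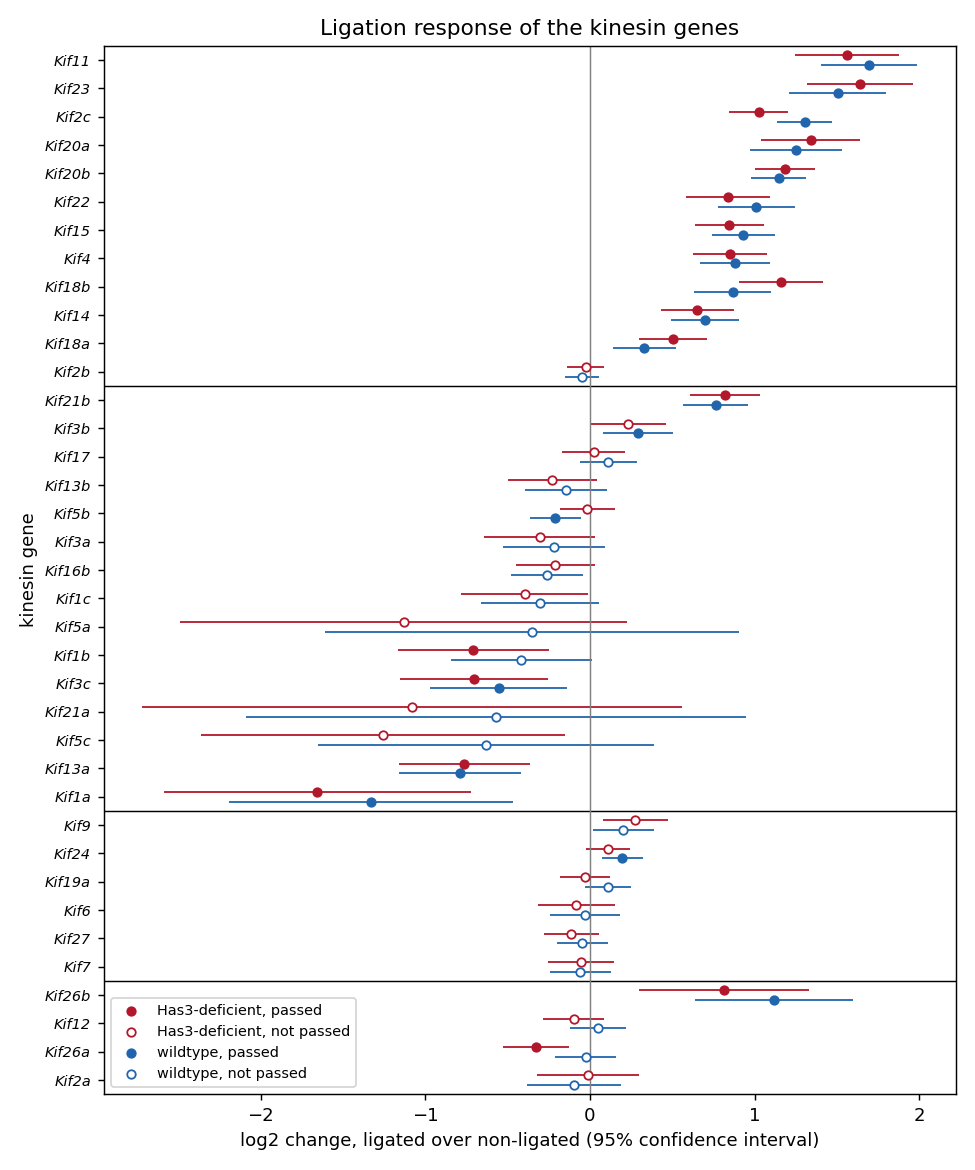
Log2 change of each kinesin, ligated over non-ligated, with its 95% confidence interval, for Has3-deficient (red, upper of each pair) and wildtype arteries (blue, lower); filled points passed at an adjusted p under 0.05. From top to bottom the blocks are mitotic, transport, cilium and hedgehog, and other kinesins. Mitotic kinesins lie right of 0, Kif2b excepted, and the wide intervals belong to Kif5a, Kif5c, Kif21a and Kif1a.

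The 6 kinesins of cilia and hedgehog signalling moved little. In limma 0 passed in Has3-deficient arteries (1 at an unadjusted p under 0.05), and 1 rose in wildtype ones. That was Kif24, which shortens microtubules at the centriole, with 0.14, 0.26, 0.16 and 0.04 after ligation, against 0.00, -0.10, 0.00 and -0.09 without it. Its change was 0.20 ± 0.06 (limma adjusted p = 0.018), beside 0.11 ± 0.06 in Has3-deficient arteries, where it had 0.15, 0.00 and 0.00 after ligation, against -0.09, -0.01, -0.04 and -0.11 without it. The wildtype call of Kif24 ended without wildtype ligated replicate 2, non-ligated replicate 2 or 4, and without the 4 arrays high in neuron genes. Kif9, a motor of motile cilia, had 0.28 ± 0.09 and 0.20 ± 0.09, and did not pass although its groups were apart in both genotypes. Kif7, which takes part in hedgehog signalling at the cilium, had -0.05 ± 0.09 and -0.06 ± 0.09. Kif6, Kif19a and Kif27 had changes between -0.12 and 0.11 and did not pass.

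Kif26b, an unusual kinesin without motor activity that is needed for kidney development in mice, rose in both genotypes. It had 0.36, 0.00 and 0.25 in Has3-deficient ligated arteries, against -0.67, -0.98, 0.21 and -1.004 in non-ligated ones, where replicate 3 lay among the ligated values. Wildtype arteries had 0.31, 0.36, 0.19 and 0.00 after ligation, against -1.18, -0.61, -0.75 and -1.07 without it, with a clear gap. Kif26b rose by 0.81 ± 0.24 (limma adjusted p = 0.0299) and 1.12 ± 0.22 (limma adjusted p = 0.00154). The Has3-deficient call of Kif26b ended without ligated replicate 3 or 6, without non-ligated replicate 1, 2 or 4, and with only the groups compared. Without Has3-deficient non-ligated replicate 3 its change was 1.09 ± 0.15 in Has3-deficient and 1.12 ± 0.13 in wildtype arteries.

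Its paralog Kif26a, which also lacks motor activity, fell in Has3-deficient arteries by 0.33 (SE 0.09, limma adjusted p = 0.0251). It had 0.01, -0.20 and -0.27 there after ligation, against 0.24, 0.39, 0.00 and 0.08 without it, and the groups overlapped. The call ended without ligated replicate 5 or 6, without non-ligated replicate 1 or 2, and with only the groups compared. Its wildtype values were -0.05, -0.04, 0.00 and -0.18, against -0.04, -0.16, 0.00 and 0.04, a change of -0.03 ± 0.09. Kif12, a kidney kinesin, did not pass, with -0.10 ± 0.09 and 0.05 ± 0.08.

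The genotypes were then compared within each kind of artery. In ligated arteries 0 of 37 members passed (limma), as 0% of all genes did, and 1 member had an unadjusted p under 0.05. That was Kif18b, which averaged 1.01 in Has3-deficient and 0.75 in wildtype ligated arteries, a difference of 0.26 ± 0.12 (limma adjusted p = 1). The next by p were Kif18a, with -0.18 ± 0.10, and Kif11, with -0.24 ± 0.15. The median difference over the 12 mitotic kinesins was -0.04 and over the 15 transport kinesins 0.04. The 95% confidence interval of the Kif11 difference ran from -0.56 to 0.07.

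In non-ligated arteries 0 of 37 members passed (limma), beside 0.0857% of all genes, and 3 had an unadjusted p under 0.05. Kif18a averaged -0.45 in Has3-deficient and -0.09 in wildtype non-ligated arteries, a difference of -0.36 ± 0.09 (limma adjusted p = 0.101), and all 4 Has3-deficient arrays lay below all 4 wildtype ones. Kif2c differed by 0.19 ± 0.08 (limma adjusted p = 0.3) and Kif26a by 0.22 ± 0.09 (limma adjusted p = 0.302), both higher in Has3-deficient arteries, with overlapping arrays. Kif1a, Kif5a, Kif5c and Kif21a were each highest in Has3-deficient non-ligated replicate 3.

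The test of the difference of the ligation responses found 0 of 37 members (limma), as for 0% of all genes, with 2 at an unadjusted p under 0.05. The response of Kif2c was smaller in Has3-deficient arteries, by 0.28 (95% confidence interval of the difference -0.53 to -0.04, limma adjusted p = 0.562). That of Kif26a was lower there by 0.30 (limma adjusted p = 0.582), and that of Kif5b was 0.20 ± 0.11 higher (limma adjusted p = 0.662). The calls that passed in 1 genotype alone, those of Kif1b, Kif3b, Kif5b, Kif24 and Kif26a, are thus not shown to differ between genotypes.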

How the data were processed

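The table of values was deposited by the authors as log2 values, 1 per probe set and array, each relative to its probe set's own median over the 15 arrays (the median of each of the 33793 rows is 0). The base of the logarithm is not stated and was taken as 2. Per the labels' protocols, 100 ng of RNA was amplified and labelled with the WT Plus kit. The array software, like any normalization, is not given in the sources used here. Centring removed the levels, so no filter on dim genes was possible, and signal over background is unknown. The number of arrays limits the precision.

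Probe sets with 1 gene symbol (23521; 1814 had several and 8458 were unlisted) were averaged to 22180 genes. A single group-means model over all arrays was fitted with limma (version 3.58.1, R version 4.3.3; 11 residual degrees of freedom), with Benjamini-Hochberg adjusted p-values over all genes and a threshold of 0.05. The fit was tested on simulated data. The members, roles, marker and partner lists were chosen with earlier results of these data known. Values in every array are given for members past the threshold in a ligation comparison, up to 8 mitotic, 6 transport and 4 others, and for Kif5b; where none passed, the 3 with the lowest p are named. Kif5a, Kif5c, Kif21a, Kif9 and Kif19a were named after their values were seen. Promoters and positions come from RefSeq (GRCm38.p6). Alternatives were another normalization, centring, array weights, prior or probe set choice, a stricter threshold, only the groups compared, a replicate block and leaving out arrays.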

Additional observations from a re-analysis of the deposited data

Results flagged for a closer look

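In 6 of 111 groups of 4 arrays, a member had 1 array far from the others by Dixon's test, where chance gives about 1 in 20. In Has3-deficient non-ligated replicate 3, Kif1a stood at 2.71 (others 0.42 to 0.81), Kif1b at 1.29 (others 0.15 to 0.23) and Kif5c at 2.85 (others 0.10 to 0.56). The 11 neuron genes averaged 4.19 in that array, and their part in these values was not tested. In wildtype non-ligated replicate 2, where the neuron genes averaged 2.36, Kif5a stood at 1.47 (others -0.14 to -0.04). In the same array the cilium kinesin Kif19a stood at -0.29 (others -0.02 to 0.00). In wildtype non-ligated replicate 3 the mitotic kinesin Kif18b stood at -0.31 (others -0.06 to -0.03).

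Kif19a had ligation changes of opposite sign in the genotypes, -0.03 in Has3-deficient and 0.11 in wildtype arteries. The difference of -0.14 did not pass (limma interaction test, adjusted p = 0.736).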

How the results depend on the processing

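The 11 rising mitotic kinesins stayed at 11 in Has3-deficient and 10 to 11 in wildtype arteries under every alternative run, and counts between genotypes and of differing responses stayed at 0. The 4 kinesins lower in wildtype arteries, all transport, became 2 after quantile normalization, 1 at an adjusted p under 0.01 and 1 to 8 when single arrays were left out. The count was 8 without Has3-deficient non-ligated replicate 3, and 1 without wildtype ligated replicate 1 or wildtype non-ligated replicate 2 or 4. It was 2 without wildtype ligated replicate 2 or 3, Has3-deficient ligated replicate 5 or Has3-deficient non-ligated replicate 2. The 2 higher transport kinesins became 1 at the stricter threshold and 1 to 2 with single arrays left out. The 5 kinesins lower in Has3-deficient arteries became 0 with only the groups compared, 0 at the stricter threshold, 9 without the 4 arrays high in neuron genes and 2 to 8 with single arrays left out (2 without any 1 ligated array, 8 without non-ligated replicate 3). The 4 transport kinesins among them became 0, 0 and 1 to 7 (1 without ligated replicate 3, 2 without replicate 5 or 6).

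Of 907 pairs of a passing gene and an alternative, 833 kept their call, 74 no longer passed and 0 reversed, and 24 of 37 gene results passed in every one. The causes were not tested. The replicate block, with 2 groups in the fit, gave 13 higher and 6 lower kinesins in wildtype arteries, without Kif18a, Kif24 and Kif5b, and 0 between non-ligated genotypes. Correlations of deviations between same-numbered arrays were 0.028 to 0.164 for wildtype ligation, against -0.208 to 0.121 between arrays of other numbers. For genotype they were -0.401 to -0.235, against -0.308 to 0.556. They cannot decide whether same-numbered arrays are paired, because the labels do not say what the numbers stand for. No paired analysis was possible for the other comparisons because those groups share 1 number. The planned filter on dim genes was not run.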
